A study of Danio rerio with 17 samples.

Results

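The apolipoprotein genes described here are apoa1a, apoa2, apoa4b.1, apoba and apoeb, which code for protein components of the particles that carry lipid in the blood. Their probe sets were chosen by name, as every probe set whose single gene symbol in the platform annotation was one of the 5. That gave 6 probe sets, 2 of them for apoba, of the 15502 probe sets tested, and the 5 genes are among 8793 that a probe set of 1 symbol named. Liver RNA of 17 zebrafish was measured on Affymetrix arrays, 1 array per fish, in a cross of sex with a diet of 25% or 0% carbohydrate. By their labels, fish 3, 20, 24, 49 and 51 were the 5 females fed 25%, while fish 7, 8, 10, 25 and 27 were the 5 females fed 0%. The 3 males fed 25% carried the numbers 52, 53 and 54, and the 4 males fed 0% the numbers 11, 26, 30 and 66; below, values follow this order of fish. The study's design text swaps the sizes of the male groups, and the sources used here do not give strain, age or the length of feeding.

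The liver packs triglyceride and cholesterol esters around apolipoprotein B, with the help of the microsomal triglyceride transfer protein, and secretes the particle into the blood. Apolipoproteins A-I and A-II are the main proteins of high-density lipoprotein, which collects cholesterol from tissues, and apolipoprotein E is a ligand through which cells take particles up. In egg-laying vertebrates the female liver also makes vitellogenin, a large lipid-carrying protein related to apolipoprotein B, and sends it to the growing oocytes under the control of oestrogen.

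The RNA came from liver as bulk tissue, so fewer cells of a type and less RNA per cell cannot be told apart. The 11 measured hepatocyte markers averaged 11.85 to 12.48 log2 signal on the 17 arrays and none lay below the array's median. Male fish 11, 52 and 66 stood apart from the other males. Their 21 intestinal epithelium markers averaged 7.74 to 8.58, against 4.55 to 4.68 in the other 4 males and 4.25 to 5.60 in the 10 females, and their 18 exocrine pancreas markers averaged 9.84 to 11.49, against 6.40 to 8.74 in the other males and 6.80 to 10.83 in females. Of the 21 intestinal markers 2 to 3 lay below the array's median in the 3 males, against 8 to 9 in the other males and 6 to 11 in females. The 23 ovary markers averaged 5.47 to 6.39 in females on 25%, 3.55 to 4.76 in females on 0% and 3.21 to 3.59 in males. The part of these other tissues in the apolipoprotein differences was not tested, and values that rest on the 3 males are given with and without them. Array medians lay between 3.52 and 3.61.

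Of the 6 probe sets, those of apoeb, apoa1a and apoa2 were lower in female than in male livers when the sexes were compared over both diets, and none was higher. Over the whole array 5.57% of probe sets were lower in females by the same rule, an adjusted p under 0.05 in limma, and 8.02% were higher. The largest difference was that of apoeb, 2.22-fold, followed by apoa1a at 1.73-fold and apoa2 at 1.13-fold. The bright probe set of apoba and that of apoa4b.1 did not pass. Over the 5 genes the median difference was −0.31 on the log2 scale, against 0.01 over all probe sets and −0.26 over 11 hepatocyte markers. In a fit of the brighter probe sets alone 10.3% were lower in females and 10.9% higher. Without male fish 11, 52 and 66 the number that passed was again 3, but apoa1a and apoeb were the 2 shared calls, apoba came in and apoa2 dropped out. In that comparison 5.24% of all probe sets were lower, and the median over the 5 genes was −0.54.

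**Figure D1:**
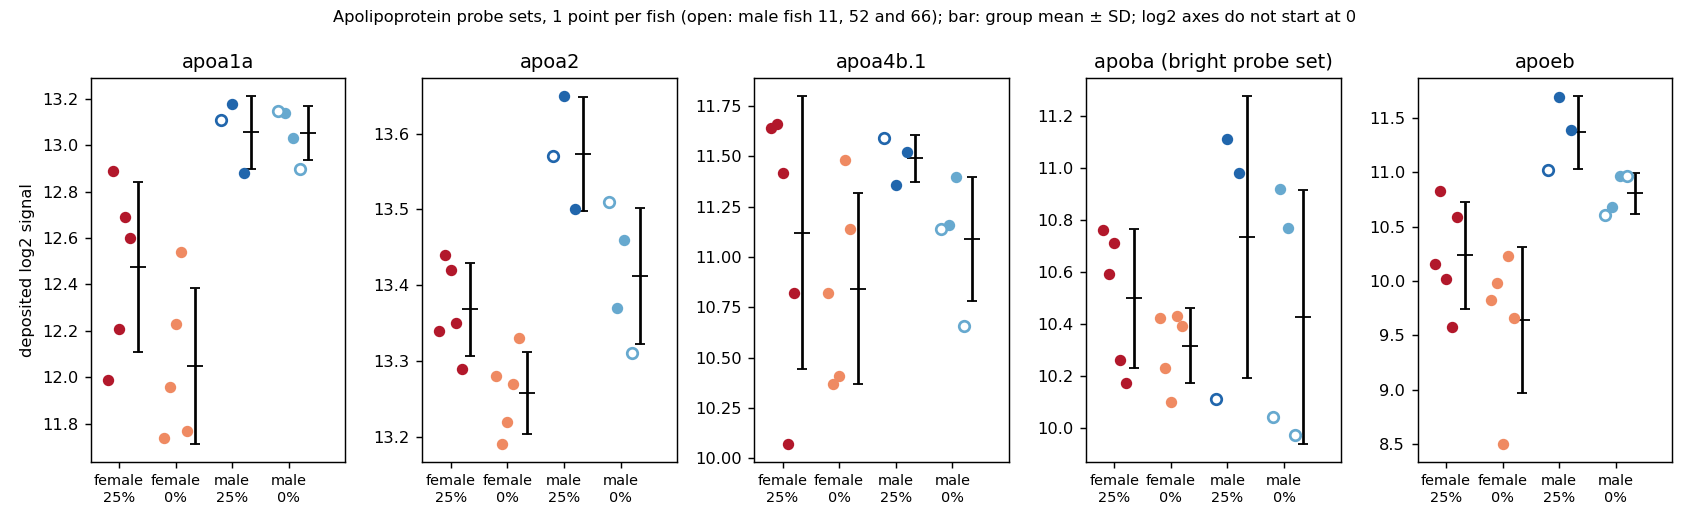
Deposited log2 signal (vertical axes, which do not start at 0) of 5 apolipoprotein probe sets in the livers of each sex and diet, 1 point per fish, with open points for male fish 11, 52 and 66 and bars for the group mean ± SD. Apoa1a and apoeb have their lowest group means in females on 0% (12.05 ± 0.34 and 9.64 ± 0.67), and for apoba the 3 open points at 9.97 to 10.11 lie below the other males.

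The A-I gene apoa1a codes for the main protein of high-density lipoprotein, which wraps the particle and activates the enzyme that esterifies its cholesterol. Its log2 signal was 11.99, 12.89, 12.21, 12.69 and 12.60 in females on 25% and 11.74, 11.96, 12.23, 12.54 and 11.77 in females on 0%. In males it was 13.11, 13.18 and 12.88 on 25% and 13.15, 13.14, 13.03 and 12.90 on 0%. Males filled a narrow band at the top of the range and females spread below it. A single female, fish 20 on 25%, reached into the male range. The probe set read 1 to 2.36 below the highest value of its array, and a loss of range there was not tested. The means were 12.48 ± 0.36 in females on 25%, 12.05 ± 0.34 in females on 0%, 13.05 ± 0.16 in males on 25% and 13.05 ± 0.11 in males on 0% (SD). In limma the difference between the sexes over both diets was −0.79 ± 0.14 (SE; 95% interval −1.08 to −0.50, adjusted p = 0.00125), and the adjusted p stayed at or below 0.00532 when any 1 fish was left out. Without male fish 11, 52 and 66 it was −0.79 with an adjusted p of 0.0139. The 3 males, at 12.90 to 13.15, lay within the 12.88 to 13.18 of the other 4.

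The sex difference of apoa1a was −0.58 ± 0.20 on 25% (adjusted p = 0.128) and −1.01 ± 0.18 on 0% (adjusted p = 0.00761, 2.01-fold), where all 5 females lay below all 4 males. At 0% carbohydrate 2 of the 6 probe sets passed, apoa1a and apoeb, against 1.06% of all probe sets lower in females. At 25% none of the 6 passed, against 1.36% of all. Limma's unadjusted p was under 0.05 for 3 of them on 25% (apoa1a, apoa2 and apoeb), a level that 18% of all probe sets reached, and the ordinary statistic called 1. Neither call at 0% held without male fish 11, 52 and 66, when 2 males were left on that diet. The difference was then −1.04 ± 0.25 for apoa1a (adjusted p = 0.0555 in limma) and −1.19 ± 0.40 for apoeb (adjusted p = 0.179). With all arrays apoeb stood at −1.17. In that fit without the 3 males 1.1% of all probe sets passed as lower.

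Apoa2 codes for apolipoprotein A-II, the second protein of high-density lipoprotein. It read 13.34, 13.44, 13.42, 13.35 and 13.29 in females on 25% and 13.28, 13.19, 13.22, 13.27 and 13.33 in females on 0%. Males had 13.57, 13.65 and 13.50 on 25% and 13.51, 13.37, 13.46 and 13.31 on 0%. All 3 males on 25% lay above all 10 females, while those on 0% overlapped with females of both diets. Group means were 13.37 ± 0.06 in females on 25%, 13.26 ± 0.05 in females on 0%, 13.57 ± 0.07 in males on 25% and 13.41 ± 0.09 in males on 0%. The sex difference over both diets was small beside those of apoa1a and apoeb, −0.18 ± 0.04 (95% interval −0.27 to −0.08, adjusted p = 0.0151 in limma). The same difference had an adjusted p of 0.0522 without male fish 11, 52 and 66 and of 0.0721 when eBayes was run with its trend and robust settings. This probe set read close to the top of every array, 0.62 to 1.01 below the highest value, and a loss of range there was not tested.

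Apoeb is a zebrafish gene for apolipoprotein E, which binds receptors of the low-density lipoprotein receptor family. Its values were 10.16, 10.83, 10.02, 9.58 and 10.59 in females on 25% and 9.83, 9.98, 8.50, 10.23 and 9.66 in females on 0%. In males they were 11.02, 11.69 and 11.39 on 25% and 10.61, 10.68, 10.97 and 10.97 on 0%. Within each diet all females lay below all males, and across diets a single female, fish 20 on 25% at 10.83, exceeded 2 of the males on 0%. A share of 2.84% of all probe sets had females wholly below males on 0%, and 4.5% on 25%; on 0% apoa1a and apoeb were such probe sets, and on 25% apoa2 and apoeb.

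The group means of apoeb were 10.23 ± 0.49 in females on 25%, 9.64 ± 0.67 in females on 0%, 11.37 ± 0.33 in males on 25% and 10.81 ± 0.19 in males on 0%. Over both diets the sex difference was −1.15 ± 0.23 (95% interval −1.63 to −0.67, adjusted p = 0.00348 in limma). It was −1.25 without male fish 11, 52 and 66 (adjusted p = 0.0166), and the adjusted p stayed at or below 0.0133 when any 1 fish was left out. By diet the difference was −1.13 ± 0.33 on 25% (adjusted p = 0.0685) and −1.17 ± 0.31 on 0% (adjusted p = 0.0491). Both lay near the threshold. The call at 0% was lost for 13 of the 17 fish when each was omitted in turn, with adjusted p up to 0.116 in limma. At 25% a call was gained without fish 20, the highest female, or without fish 10, the lowest, which was on 0%. Fish outside the groups compared enter only through the estimate of spread, which all 17 arrays share.

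Apoba codes for apolipoprotein B, the protein around which very-low-density lipoprotein is built. Its bright probe set read 10.76, 10.59, 10.71, 10.26 and 10.17 in females on 25% and 10.42, 10.23, 10.10, 10.43 and 10.39 in females on 0%. In males it read 10.11, 11.11 and 10.98 on 25% and 10.04, 10.92, 10.77 and 9.97 on 0%. The males fell at the extremes: fish 11, 52 and 66 had 10.04, 10.11 and 9.97, and the other 4 had 10.77 to 11.11, above all 10 females. The group means were 10.50 ± 0.27 in females on 25%, 10.32 ± 0.14 in females on 0%, 10.73 ± 0.54 in males on 25% and 10.42 ± 0.49 in males on 0%. With all arrays the sex difference was −0.17 ± 0.17 (95% interval −0.53 to 0.18, adjusted p = 0.536 in limma). Without the 3 males it was −0.54 ± 0.11 (adjusted p = 0.00975), and 1.9% of all probe sets then had females wholly below males. Those males were picked out after the data were seen, and their intestinal markers averaged above those of every other fish. Their pancreatic markers, at 9.84 to 11.49, overlapped those of females, at 6.80 to 10.83, and no female was left out. Apoba was low in the same 3 males.

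The low apoba of the 3 males went with lower hepatocyte markers. Their 11 hepatocyte markers averaged 11.87 to 12.06, against 12.38 to 12.48 in the other males and 11.85 to 12.17 in females. Fabp2, the intestinal fatty acid binding protein, read 11.20, 12.23 and 11.67 in fish 11, 52 and 66, against at most 3.70 in the other males. The part of other tissues in the apoba values was not tested. The other apoba probe set read 2.68 to 3.19, below the array's median on all 17 arrays, so it was not shown to measure the transcript, and it passed in none of the 6 contrasts.

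**Figure D2:**
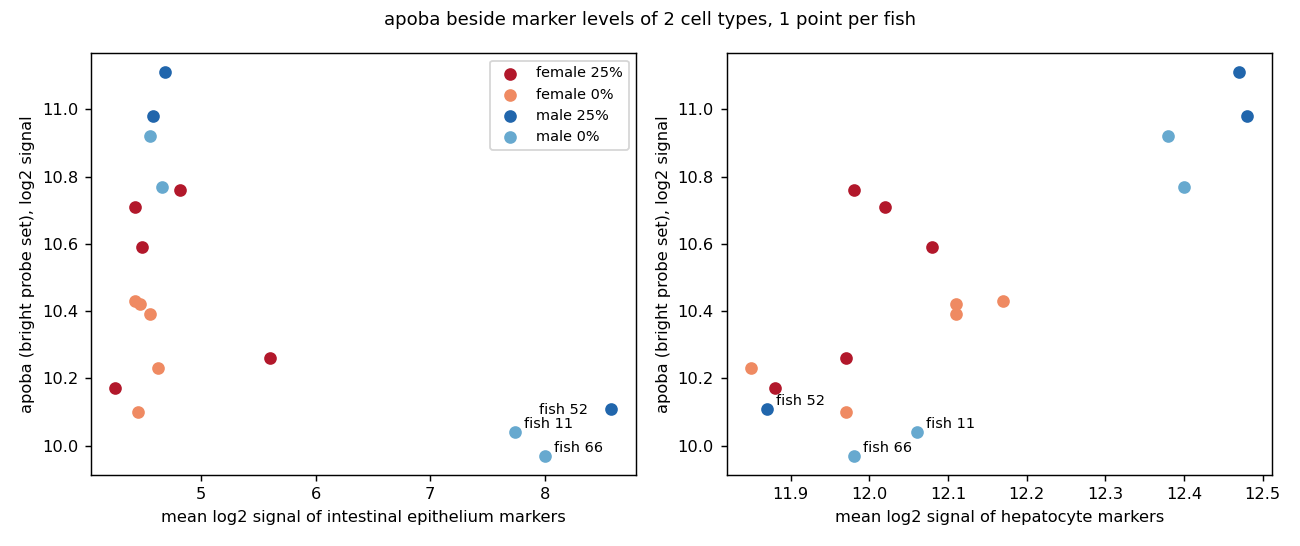
Log2 signal of the bright apoba probe set (vertical axis) against the mean log2 signal of 21 intestinal epithelium markers (left) and of 11 hepatocyte markers (right), 1 point per fish, coloured by sex and diet. Male fish 11, 52 and 66 have intestinal means of 7.74 to 8.58 and apoba of 9.97 to 10.11, and the other 4 males have hepatocyte means of 12.38 to 12.48 and apoba of 10.77 to 11.11.

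Apoa4b.1 is one of the zebrafish genes for apolipoprotein A-IV, which in mammals the intestine and liver secrete with newly absorbed or newly made lipid. It read 11.64, 11.66, 11.42, 10.07 and 10.82 in females on 25% and 10.82, 10.37, 10.41, 11.48 and 11.14 in females on 0%. Males had 11.59, 11.36 and 11.52 on 25% and 11.14, 11.16, 11.40 and 10.66 on 0%. Females together spread past both ends of the male range, and both the highest and the lowest fish were females on 25%. The means were 11.12 ± 0.68 in females on 25%, 10.84 ± 0.48 in females on 0%, 11.49 ± 0.12 in males on 25% and 11.09 ± 0.31 in males on 0%. The sex difference of −0.31 ± 0.22 (95% interval −0.78 to 0.17, adjusted p = 0.397 in limma) was not larger than this spread, and without fish 11, 52 and 66 it was −0.38 with an adjusted p of 0.476.

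The diets were compared within each sex to ask whether dietary carbohydrate changed hepatic apolipoprotein transcripts. None of the 6 probe sets passed in females, where 1.9% of all probe sets were higher on 25% and 0.194% were lower, and none passed in males, where 0.0968% were higher and 0.0194% were lower. The differences of the 5 bright probe sets were nevertheless at or above 0 in both sexes, with medians of 0.28 in females and 0.31 in males, against −0.03 and −0.01 over all probe sets. Without male fish 11, 52 and 66 the median in males was 0.16, and apoa1a stood at −0.06 in them. In females apoeb differed by 0.60 ± 0.29 (95% interval −0.02 to 1.21, adjusted p = 0.409 in limma) and apoa1a by 0.43 ± 0.17 (interval 0.06 to 0.80, adjusted p = 0.3). The fish of the 2 diets overlapped for every one of the probe sets in females.

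In males apoeb differed by 0.56 ± 0.35 between 25% and 0% (95% interval −0.18 to 1.3, adjusted p = 0.743 in limma), and all 3 males on 25% lay above all 4 on 0%, a pattern that 3.39% of all probe sets showed. Apoa1a had the same mean on both diets, with an interval of −0.45 to 0.45, so a change of up to 0.45 either way was not excluded. The differences in apoa2 were 0.11 ± 0.06 in females and 0.16 ± 0.07 in males, those in apoba 0.18 ± 0.21 and 0.31 ± 0.26, and those in apoa4b.1 0.28 ± 0.29 and 0.40 ± 0.35, with adjusted p between 0.439 and 0.849. In limma an unadjusted level of 0.05 was reached by 1 of the 6 in each sex, apoa1a in females and apoa2 in males, against 12.8% of all probe sets in females and 8.18% in males. The ordinary statistic and the trend and robust settings also called none.

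No probe set passed the test of the interaction, the diet difference in females minus that in males, against 0.697% of all, and none reached an unadjusted level of 0.05, which 5.99% of all did. The ordinary statistic called none either. For apoa1a it was 0.43 (95% interval −0.15 to 1.01, adjusted p = 0.973 in limma) and for apoeb 0.04 (−0.92 to 1, adjusted p = 0.999). For apoa2, apoba and apoa4b.1 it lay between −0.13 and −0.05, with an adjusted p of 0.996 each. The ovary markers beside these values averaged higher in females on 25% than in females on 0%, and 18 of the 23 passed the diet test in females; their part in the diet values was not tested.

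**Figure D3:**
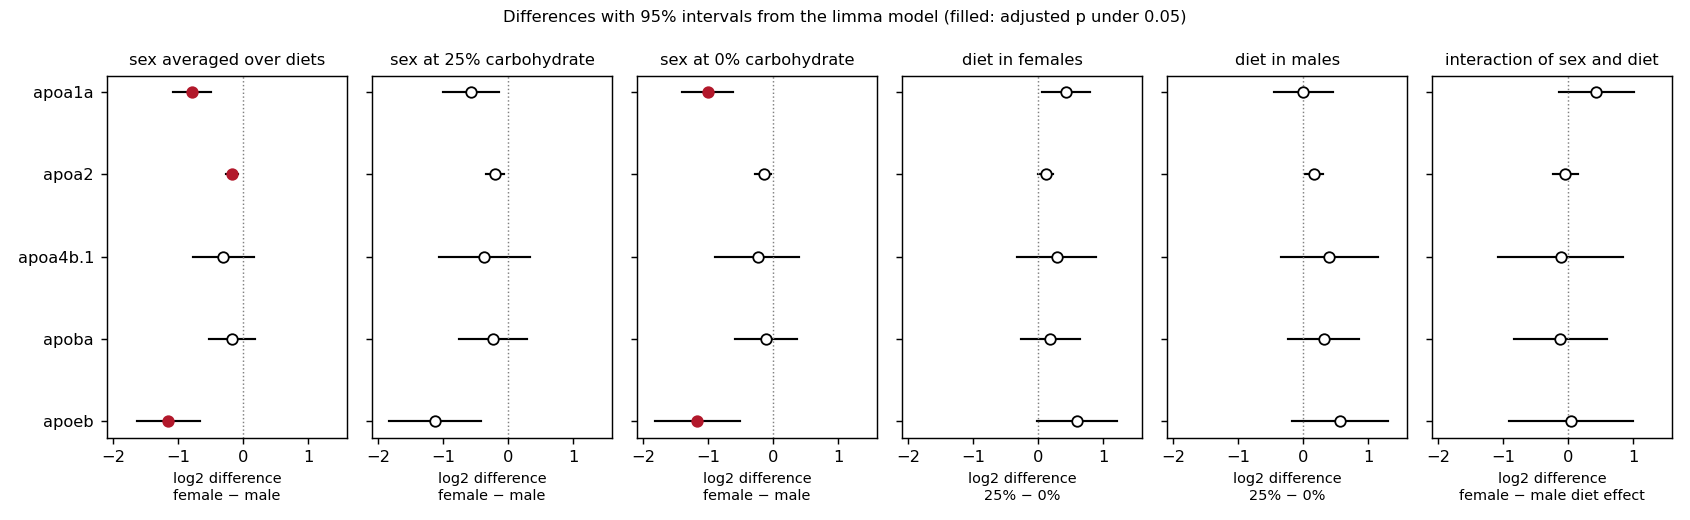
Log2 differences of 5 apolipoprotein probe sets (points, with 95% intervals from limma) in the 6 contrasts, female minus male in the first 3 panels, 25% minus 0% in the next 2 and the difference of the diet effects in the last, with filled points at an adjusted p under 0.05. Apoeb at −1.15, apoa1a at −0.79 and apoa2 at −0.18 passed over both diets, apoa1a at −1.01 and apoeb at −1.17 on 0%, and no point in a diet or interaction panel is filled.

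The genes differed in how far fish of one group spread. SDs were 0.05 to 0.09 for apoa2 and 0.19 to 0.67 for apoeb. For apoba they were 0.14 and 0.27 in females but 0.49 and 0.54 in males, where the 3 fish lay low. For apoa1a they were larger in females, 0.34 and 0.36, than in males, 0.11 and 0.16. Whether fish that were high for one gene within their group were high for another was examined for all 15 pairs of probe sets over the 17 arrays, as deviations from group means with a permutation within groups. Apoa4b.1 and apoba (r = 0.46, permutation p = 0.02; Spearman's rho = 0.40, permutation p = 0.06; r = 0.45 without the 2 farthest fish) and apoa2 and apoa4b.1 (r = 0.49, permutation p = 0.047; rho = 0.47, permutation p = 0.06; r = 0.47 without the 2 farthest) were the closest by p. No pair passed after adjustment over the 15, with lowest adjusted p of 0.3 for r and 0.45 for rho by the permutation test.

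The genes whose levels followed each apolipoprotein most closely were taken from 8788 other genes, by Pearson's r over the 17 arrays, as a description. The arrays share sex, diet and tissue makeup. For apoba the closest were hao1 (r = 0.93), a peroxisomal glycolate oxidase gene of the liver, deptor (0.90) and fahd2a (0.88). With group means removed hao1 (0.95) was joined by gstt1a (0.94), a glutathione transferase gene, and mat1a (0.92), which makes S-adenosylmethionine in liver. Hao1, like apoba, was low in male fish 11, 52 and 66 (8.01, 7.61 and 7.63), against 8.68 to 8.83 in the other males and 7.69 to 8.69 in females. For apoa2 the closest were gde1 (0.91), adipor2 (0.86), which codes for an adiponectin receptor, and apoc1 (0.84).

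Apoa4b.1 followed its relative apoa4b.2 (r = 0.80), then sf1 (0.78) and decr2 (0.76), a peroxisomal enzyme of fatty acid oxidation. Probes that read both A-IV relatives were not tested. With group means removed decr2 (0.84), zgc:110339 (0.80) and idh1 (0.79) came first. Apoa1a was closest to galcb (0.87), ap2a1 (0.83) and mapkapk2a (0.83), and apoeb to ccnt1 (0.84), slc34a2b (0.83) and si:dkeyp-115e12.6 (0.82). With group means removed the lists changed to laptm4b (0.79), tecpr2 (0.77) and kif1b (0.76) for apoa1a, and to caprin2 (0.82), mc2r (0.80) and zgc:162144 (0.79) for apoeb. For apoa2 they were ptpn11b (0.83), aldh9a1a.1 (0.81) and prkar1aa (0.80). None of the genes named with group means removed was an apolipoprotein gene. Among them laptm4b, mc2r and zgc:162144 had mean signals of 3.15, 3.06 and 2.25, below the array medians. Si:dkeyp-115e12.6, named for its levels, had a mean of 3.37, also below the array medians.

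Apoa4b.1, apoeb and apoa2 lie near each other in the genome. The RefSeq annotation of GRCz12tu lists 10 protein-coding genes in a row from apoa4b.1 to apoc2, of which 7 were measured by a probe set of 1 symbol, in the order apoa4b.1, apoa4b.2, apoeb, apoc1, apoc4, apoa2 and apoc2. Apoc1 and apoc2 code for small apolipoproteins exchanged between particles, and the second activates lipoprotein lipase. The 5 genes described here sit on 3 chromosomes. With all arrays and the deposited scale the sex difference was below 0 in all 7, but that of apoc4 turned above 0 after quantile normalization (0.04), without male fish 26 and without male fish 54 (up to 0.13). It passed for apoeb, apoc1 (−0.36 ± 0.08, adjusted p = 0.00533 in limma) and apoa2, and the calls of apoeb and apoa2 are those already given above. Of all probe sets 5.57% were lower in females by the same rule, and the median over all was 0.01. Without fish 11, 52 and 66 the share lower was 5.24%. With all arrays the sex difference was −0.48 ± 0.22 for apoa4b.2 (adjusted p = 0.167), −0.27 ± 0.10 for apoc2 (adjusted p = 0.0766) and −0.05 ± 0.22 for apoc4 (adjusted p = 0.898). Without fish 11, 52 and 66 apoc1 stood at −0.46 (adjusted p = 0.00394), apoc2 passed at −0.36 (adjusted p = 0.0207) and apoc4 stood at −0.49 (adjusted p = 0.103). Along the row the estimates ran from 0.05 to 1.15 below 0 with all arrays, and differences between the genes were not tested. The diet differences of the 7 genes were above 0 in both sexes and none passed. Over all probe sets the median diet differences were −0.03 in females and −0.01 in males. The diet differences of apoc2 in females (0.03) and apoc4 in males (0.35) turned to as low as −0.02 and −0.01 when 1 fish was left out.

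**Figure D4:**
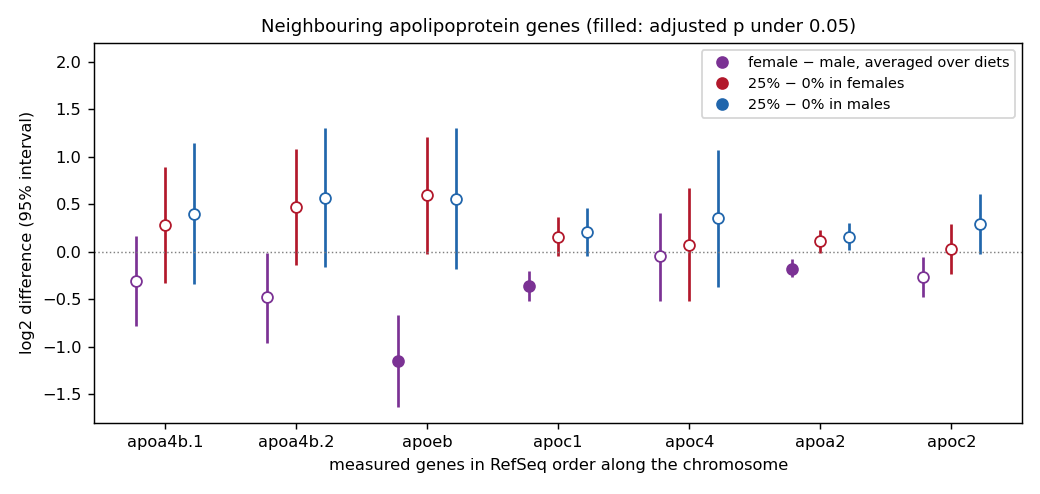
Log2 differences (points, with 95% intervals from limma; filled at an adjusted p under 0.05) of the 7 measured genes of the row from apoa4b.1 to apoc2, in RefSeq order and not to scale, for sex over both diets, diet in females and diet in males. The sex differences lie below 0, from −1.15 for apoeb to −0.05 for apoc4 (not drawn: apoc4 turned to 0.04 after quantile normalization and to as high as 0.13 without male fish 26 or 54), and the diet differences above 0 with none filled.

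Of 13 other apolipoprotein genes measured, apoc1 was lower in females and apool higher, with a median difference of −0.08. Among all probe sets 5.57% were lower and 8.02% higher. Apool, which despite its name codes for a mitochondrial inner membrane protein, differed by 0.29 ± 0.08 (adjusted p = 0.0199 in limma), a call lost without male fish 52 or without all 3 males (adjusted p = 0.15). Without the 3 males 2 of the 13 passed, apoc1 and apoc2, both lower, as were 5.24% of all probe sets. By diet 0 of the 13 passed in either sex. At an unadjusted level of 0.05 in limma 2 were higher on 25% in females and 1 was lower in males. Of all probe sets 12.8% reached that level in females and 8.18% in males, in either direction. Apobb.1, another gene for apolipoprotein B, differed by −0.08 ± 0.08 with all arrays (adjusted p = 0.549). Apom, which carries sphingosine-1-phosphate in high-density lipoprotein, differed by −0.10 ± 0.15 (adjusted p = 0.702). Without the 3 males apobb.1 stood at −0.16 with an adjusted p of 0.361, beside −0.54 for apoba; whether the 2 genes differed was not tested. Apobb.1 and apom were named for their roles after their values were seen.

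Some other apolipoprotein genes were high in the 3 males whose intestinal markers were high. Apoea, the other gene for apolipoprotein E, read 10.08, 12.35 and 11.30 in male fish 11, 52 and 66. It read 3.09 to 3.47 in the other males and 2.92 to 7.18 in females, where fish 20, 49 and 3 were highest. Intestinal markers averaged 4.48, 5.6 and 4.81 in fish 20, 49 and 3, so the female highest for apoea was not high for them. Apoa4a read 6.43, 7.60 and 6.81 in the same males, against 4.17 to 4.26 in the others and 3.94 to 4.43 in females. The dimmer of the apoa4b.2 probe sets read 6.08, 9.96 and 9.27, against 3.03 to 3.71 and 2.62 to 3.75. These genes, named after their values were seen, did not pass the sex test (apoea −2.46 ± 1.42, adjusted p = 0.272 in limma), and none of the 5 apolipoprotein genes described here was higher in the 3 males in this way. Apoeb had 10.61, 11.02 and 10.97 in them, against 10.68 to 11.69 in the other males.

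Among 18 measured genes of lipoprotein assembly and export, 3 were higher in females and 5 lower, with a median of −0.03. Of all probe sets 8.02% were higher and 5.57% lower. Lman1, a cargo receptor between endoplasmic reticulum and Golgi, was higher by 1.54 ± 0.27 (adjusted p = 0.00137 in limma), hdlbpa, the RNA-binding protein vigilin, by 0.84 ± 0.13 (adjusted p = 0.000433), and pdia3, a disulfide isomerase, by 0.75 ± 0.12 (adjusted p = 0.000679). Each of these also passed without male fish 11, 52 and 66. The 3 lowest were plin3, a lipid droplet coat protein, at −1.23 ± 0.25, dgat1a, a triglyceride synthesis enzyme, at −1.13 ± 0.27, and sec23a, a coat protein of vesicles leaving the endoplasmic reticulum, at −0.78 ± 0.17. All 3 missed the threshold without those males, with adjusted p of 0.0535, 0.103 and 0.0602. Other genes were lower in that fit, where 4 of the 18 passed as higher and 3 as lower. Of all probe sets 4.13% were then higher and 5.24% lower. The 3 lower genes were mia2 (−0.34, adjusted p = 0.0106 in limma), fabp10a (−0.35, adjusted p = 0.0353) and sec23b. Mia2 and fabp10a were also lower with all arrays, whereas sec23b, and hspa5 among the higher, passed only without the 3 males. The female mean of dgat1a, 3.07, lay below the array medians. Mttp, the triglyceride transfer protein that loads apolipoprotein B, differed by −0.01 ± 0.12 (adjusted p = 0.955) and was named for its role.

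By diet, the assembly genes that passed were in males: hspa5 was higher on 25% by 2.61 ± 0.36 (adjusted p = 0.013 in limma), hsp90b1 by 2.59 ± 0.37 (adjusted p = 0.0142) and pdia4 by 1.73 ± 0.29 (adjusted p = 0.0297). All 3 code for chaperones or folding enzymes of the endoplasmic reticulum, and their list was chosen with earlier results known. Over the whole array 0.0968% of probe sets were higher on 25% in males. Whether lipoprotein assembly as such responded to diet was not tested. The calls were lost without fish 53 or fish 54, 2 of the 3 males on 25%, and all 3 with only the groups compared or with the ordinary statistic. That of pdia4 was also lost without fish 11, 26 or 30 and without the 3 males together (adjusted p = 0.0511). In females 0 of the 18 passed in limma, though 5 were higher on 25% at an unadjusted level of 0.05. Of all probe sets 12.8% reached that level in either direction. Hspa5 differed in females by 1.05 ± 0.30 (adjusted p = 0.102 in limma). It passed when the 3 males were left out of the fit (adjusted p = 0.0114).

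By sex, 1 of 11 receptor and uptake genes and 2 of 8 remodelling genes passed. Over the whole array 8.02% of probe sets were higher in females and 5.57% lower. Of 11 receptor and uptake genes scarb2c, of the scavenger receptor class B family, was lower, at −0.49 ± 0.13 (adjusted p = 0.0198 in limma), a call lost without male fish 53 (adjusted p = 0.0607) or after quantile normalization. Without male fish 11, 52 and 66 scarb1, a receptor for high-density lipoprotein, passed as higher by 0.68 (adjusted p = 0.00578). With all arrays scarb1 stood at −0.21 ± 0.37 (adjusted p = 0.747). The gained difference lay in females on 25%, where scarb1 read 5.92 to 6.29. The 3 males left out read 6.58 to 7.34, above all females. Females on 0% read 4.69 to 5.51, overlapping the other males at 4.65 to 5.2. Without the 3 males scarb1 also passed by sex on 25% and by diet in females, but not by sex on 0%. Of 8 remodelling genes lipg, endothelial lipase, was higher by 0.55 ± 0.14 (adjusted p = 0.0193) and lipia lower, at −0.36 ± 0.10 (adjusted p = 0.0316). Lipg missed the threshold without male fish 52 (adjusted p = 0.0508) and lipia in 9 of the 17 fits that left out 1 fish. Neither passed without the 3 males (adjusted p = 0.116 and 0.234), when pon2 was the one that passed, at −0.73 (adjusted p = 0.0475); pon2 and scarb1 were named after their values were seen. Lipg was also higher on 25% in females, by 1.3 ± 0.18 (adjusted p = 0.000536), from a mean on 0%, 3.13, below the array medians. The ovary markers likewise averaged higher in females on 25%, and their part in the lipg and scarb1 values was not tested.

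Of 26 measured transcription factors known to act on hepatic apolipoprotein genes, 2 were higher and 2 lower in females. Of all probe sets 8.02% were higher and 5.57% lower. Hnf4a, a nuclear receptor that drives many hepatocyte genes, apolipoproteins among them in mammals, read 6.41, 6.55, 6.54, 5.84 and 6.68 in females on 25% and 6.49, 6.67, 6.37, 6.86 and 6.71 in females on 0%. Males had 6.49, 7.58 and 7.40 on 25% and 7.20, 7.56, 7.36 and 7.15 on 0%. All males but fish 52 lay above all females. The difference was −0.72 ± 0.15 (adjusted p = 0.00552 in limma) and −0.96 without male fish 11, 52 and 66 (adjusted p = 0.00138). The dimmer hnf4a probe set was also lower, at −0.30 ± 0.08 (adjusted p = 0.028), from values below the array medians.

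Esr1, the oestrogen receptor gene, was higher in females by 4.22 ± 0.14 (adjusted p = 2.49e-11 in limma), with a male mean of 3.19, below the array medians, so the size is not exact. Foxa3, a forkhead factor of liver, was higher by 0.67 ± 0.16 (adjusted p = 0.01). Nr2f6a, an orphan nuclear receptor, stood at −0.40 ± 0.12 (adjusted p = 0.0356), lost in 10 of the 17 fits that left out 1 fish, after quantile normalization and with the ordinary statistic. Without the 3 males 2 of the 26 were higher and 6 lower, against 4.13% and 5.24% of all probe sets. By diet nr5a2, a nuclear receptor of bile acid and cholesterol metabolism, was lower on 25% in females, at −0.57 ± 0.13 (adjusted p = 0.0302), lost in 6 of the 17 fits, with only the groups compared and with the ordinary statistic. In females 0.194% of all probe sets were lower on 25%. In males 0 of the 26 passed in limma. At an unadjusted level of 0.05 2 were higher on 25% and 1 lower, against 8.18% of all probe sets in either direction.

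Genes for other proteins that hepatocytes secrete were compared in the same way, beside 5.57% of all probe sets lower in females and 8.02% higher. Of 27 such genes 4 were lower in females and none higher, with a median of −0.15: fgb (−0.54 ± 0.14, adjusted p = 0.0177 in limma) and fgg (−0.37 ± 0.08, adjusted p = 0.00564), which code for fibrinogen chains, f5 (−0.68 ± 0.19, adjusted p = 0.0272), clotting factor V, and leg1.1 (−0.60 ± 0.16, adjusted p = 0.0212). The last 2 missed the threshold without male fish 53 or fish 54. Of 11 hepatocyte markers 4 were lower, 3 of them also in the secreted list and the other fabp10a, the liver fatty acid binding protein (−0.27 ± 0.08, adjusted p = 0.0403, lost in 11 of the 17 fits that left out 1 fish and with trend and robust eBayes). Without male fish 11, 52 and 66 the numbers lower were 11 of 27 and 7 of 11, each with a median of −0.41, and none was higher. In that comparison 5.24% of all probe sets were lower. With all arrays the differences of apoeb (−1.15) and apoa1a (−0.79) lay below those of the 4 secreted genes, and without the 3 males f5 (−1.06), fgb (−0.80) and leg1.1 (−0.80) lay between apoeb (−1.25) and apoa1a (−0.79); these gaps were not tested. By diet 0 of the 27 secreted genes passed in limma, with 1 higher on 25% at an unadjusted level of 0.05 in females and 0 in males, and their medians were −0.02 in females and 0.03 in males, beside 0.28 and 0.31 for the 5 apolipoprotein genes. Without the 3 males the medians in males were 0.09 for the secreted genes and 0.16 for the 5 apolipoprotein genes. Whether the 2 lists differed was not tested.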

How the data were processed

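Liver RNA of 17 fish was measured on 1 Affymetrix zebrafish array each. The deposited table holds log2 signals that the authors had already put on a common scale; base 2 was inferred from the values. MAS5, RMA, GCRMA and PLIER appear in the submitters' processing notes with no role stated, and per the labels the RNA was biotin-labelled by 3′ amplification. Detection calls were not used here, and the number of arrays limits the precision. Of 15617 probe sets 115 controls were left out. In the platform annotation 10795 had 1 symbol, 135 several and 4572 none; 10711 were matched to RefSeq by Entrez ID, the 6 apolipoprotein probe sets among them, with 1 symbol updated.

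Group means were fitted with limma 3.58.1 (lmFit, eBayes) in R 4.3.3 over all 17 arrays, and 6 contrasts were tested with Benjamini and Hochberg adjustment over 15502 probe sets at 0.05. The code of the fit was checked on simulated data with independent noise for each probe set. Those data held no mixed tissue, and how many changes were recovered is not reported here. Fish are separate animals by their labels. Correlations used 100000 permutations within groups.

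The members and gene lists were chosen with earlier results of these data known, so no list was tested as a set. List genes were read from their brightest probe set, and at most the 3 highest and 3 lowest past the threshold were named, with esr1 always. Alternatives were quantile normalization, median centring, the brighter probe sets, trend and robust eBayes, array weights, the groups compared alone, the ordinary statistic, each fish left out, and, added after seeing the data, male fish 11, 52 and 66 left out.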

Additional observations from a re-analysis of the deposited data

How the results depend on the processing

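The count of 3 apolipoprotein probe sets lower in females over both diets was 3 in every fit that left out 1 fish, and 2 with trend and robust eBayes, which dropped apoa2. On 0% the count of 2 was 1 under quantile normalization, with only the groups compared and with the ordinary statistic, 0 without male fish 11, 52 and 66, and 1 to 2 when 1 fish was left out. On 25% the count of 0 was 1 with the ordinary statistic, which called apoa2, and 0 to 1 when 1 fish was left out. Of the differences of the 5 bright probe sets under the alternatives, 693 kept sign and side of the threshold, 20 lost and 4 gained a call and 23 changed sign, none of these called. For apoa1a by diet in males the value was −0.06 without the 3 males and −0.06 to 0.09 when 1 fish was left out; for apoba on 0% by sex it was −0.26 to 0.06. The interaction was 0.15 with array weights, 0.12 without the 3 males and −0.26 to 0.14 when 1 fish was left out for apoa4b.1, −0.44 to 0.06 for apoba, and −0.14 after quantile normalization, −0.11 without the 3 males and −0.25 to 0.20 for apoeb. The causes were not tested. Over all probe sets the sex calls were 1243 higher and 863 lower, against 1064 and 1071 after centring and 640 and 813 without the 3 males; on 0% their total of 516 was 337 with only the groups compared, 304 without the 3 males and 275 to 593 when 1 fish was left out, and on 25% 761 was 394 with only the groups compared. By diet in males 18 was 40 with array weights, 0 with only the groups compared, 1 with the ordinary statistic, 28 without the 3 males and 1 to 52 when 1 fish was left out, and for the interaction 108 was 64, 41 (ordinary statistic), 15 (3 males out) and 43 to 163. Only the groups compared gave no separate fit over both diets or for the interaction. No paired analysis was possible because each fish number occurs once. With 3 to 5 fish a group, differences that lie within the intervals given were not excluded, and dim signals, below an array's median, may be background.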
